A study of Mus musculus with 8 samples.

Results

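The subject here is a set of 10 genes that encode glycoproteins and elastic fibre components of the extracellular matrix: Fn1, Postn, Tnc, Eln, Fbn1, Fbn2, Fbln1, Fbln2, Fbln5 and Lox. They were chosen by name, and each matched 1 locus of the 26747 in the deposited table. All 10 passed the filter on low counts. Whole stomachs of mouse embryos were taken at embryonic stage E13.5, and their RNA was sequenced in 4 wild type libraries and 4 libraries of genotype Nkx3.2Cre;R26-YAP5SA, called YAP5SA here. In that genotype Cre recombinase made under Nkx3-2, a gene of the stomach mesenchyme, switches on from the Rosa26 locus a form of the coactivator YAP that Hippo kinases cannot inhibit. No library carried Cre alone, so Cre and YAP5SA cannot be told apart. The labels do not say whether a library came from 1 embryo or a pool, so the spread between libraries may be partly technical.

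Elastic fibres give tissue its recoil. Fibrillins assemble into microfibrils, elastin (Eln) is laid down on that scaffold with the help of fibulins, and lysyl oxidase (Lox) cross-links it. Fibronectin (Fn1), an early provisional matrix, is bound by cells through integrins, while tenascin C (Tnc) and periostin (Postn) are matricellular glycoproteins that modulate adhesion. In the embryonic gut the mesenchyme and its smooth muscle make most of these proteins.

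Of the 10 genes, 1 rose in YAP5SA stomachs (Fbln5) and 1 fell (Fbln1), and 8 did not pass the test. Over all 14574 named loci tested with edgeR, 18.9% passed an adjusted p under 0.05, 9.06% higher and 9.85% lower, so 2 of 10 is close to the background. Coverage differed within the set: 7 genes, Fbln1 among them, lay at 0.3 fragments per base and above, where 9.93% of loci passed. Fbln5 lay at 0.05 to 0.1, where 23.17% passed, and Tnc and Lox lay between these ranges. Among the 8030 loci within the range of all 10 genes, 15.5% passed. The median log2 fold change (YAP5SA minus wild type) was 0.12 over the 10 genes and −0.01 over all loci. In 2 of the 10 genes, the called ones, the 4 libraries of a genotype did not overlap those of the other, against 23.3% of all loci. In bulk tissue, fewer cells of a type and less RNA per cell cannot be told apart.

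Wild type libraries held 6328344 to 6919353 fragments and YAP5SA libraries 7293556 to 8513116, so depth and genotype cannot be told apart. Markers of other cells moved with genotype, their part in the results below was not tested, and none of those with a locus of their own was at 0 in all libraries. Of 9 smooth muscle markers 7 fell, their summed level being 1520 to 1611 CPM (fragments scaled to a common library total) in wild type and 752 to 969 in YAP5SA. All 7 tested markers of gastric epithelium fell (665 to 796 against 354 to 516 CPM) and all 8 tested macrophage markers rose (270 to 368 against 488 to 722 CPM). Of 8 markers of enteric neurons 7 fell, as did 4 of 5 tested markers of enteric glia. Of 4 tested skeletal muscle markers 3 rose, with sums of 3.63 to 13.2 and 13.1 to 50.2 CPM, and of 4 liver markers 2 rose, Alb by 6.17-fold and Afp by 3.86-fold. Endothelium, with 1 of 9 higher, stood at 681 to 806 and 770 to 877 CPM. Of 5 tested mesothelium markers 1 fell, as did 1 of 3 tendon markers and 1 of 2 tested erythroid markers. Among 7 tested cartilage markers 1 rose and 0 fell. Of 7 tested markers of stomach mesenchyme 1 fell and 0 rose, with sums of 2116 to 2255 and 1800 to 2077 CPM, so the labelled tissue was present in both genotypes.

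**Figure D1:**
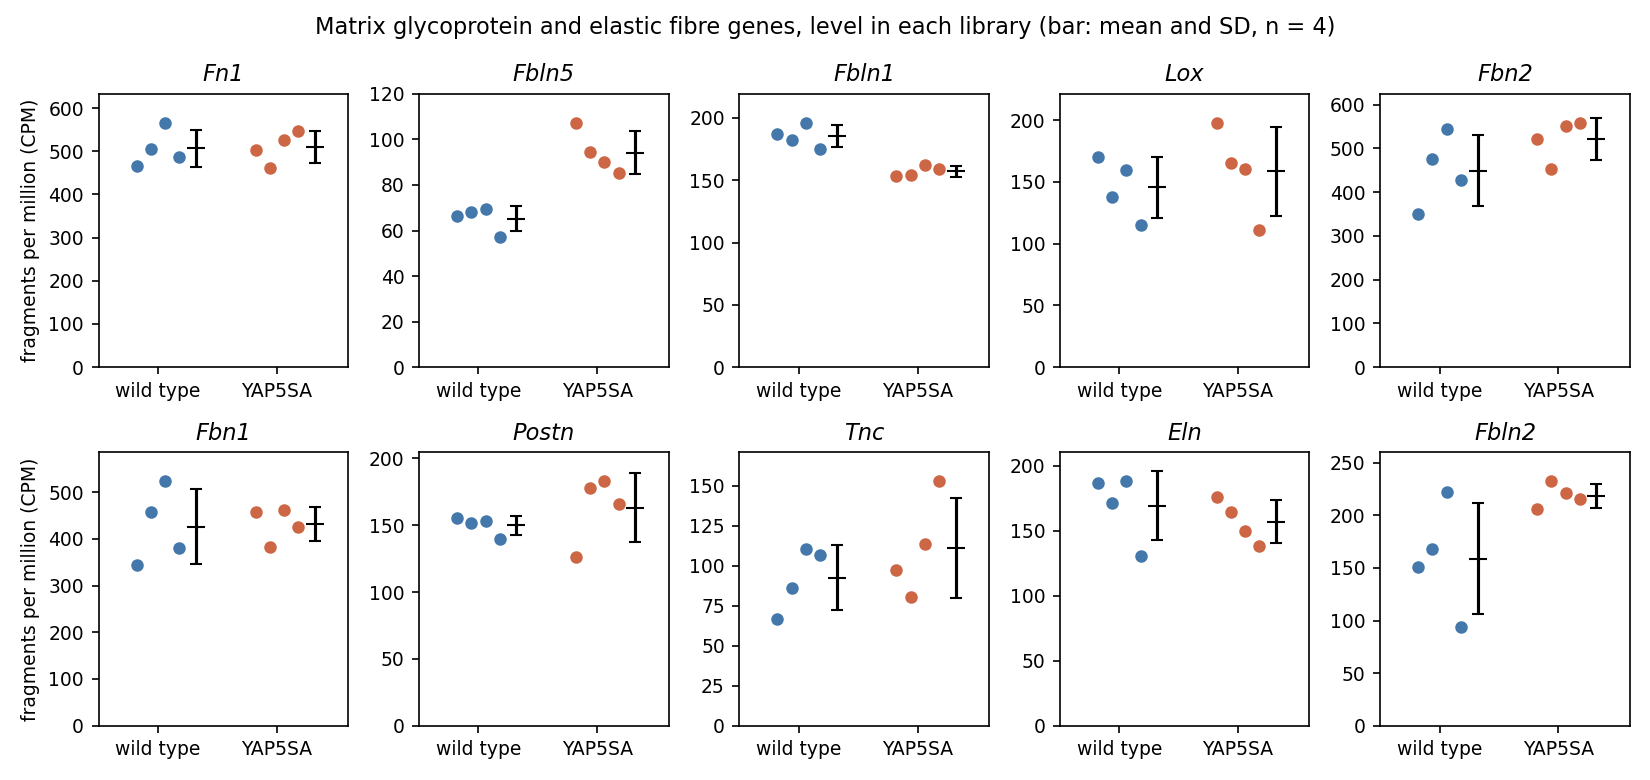
Level of each of the 10 genes in CPM (y axis, starting at 0) by genotype (x axis), 1 point per library in the order of replicates 1 to 4, with a bar for the mean and SD (n = 4). Fbln5 and Fbln1 are the panels whose genotypes do not overlap, at 57.2 to 69.4 against 85.2 to 107 CPM and at 175 to 196 against 153 to 162 CPM.

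Compared per length as FPKM (fragments scaled by transcript length and library total by the authors), the 10 genes spanned from 11.3 ± 0.952 (Fbln5) to 78.8 ± 3.74 (Fbln1) in wild type (SD, n = 4). The wild type order was Fbln1, Fn1 (61.3 ± 5.05), Postn (50.4 ± 2.35), Eln (46.2 ± 7.28), Fbn1 (42.8 ± 8.002), Fbn2 (42.1 ± 7.64), Fbln2 (38.0 ± 12.7), Lox (35.3 ± 6.08), Tnc (14.97 ± 3.14) and Fbln5. Neighbours were separated over all libraries only between Fbln1 and Fn1, between Fn1 and Postn, and between Lox and Tnc; from Postn to Lox each gene overlapped the next. In YAP5SA the order opened with Fbln1 (67.3 ± 1.47 FPKM), Fn1 (62.4 ± 4.35), Postn (55.1 ± 8.51) and Fbln2 (52.8 ± 2.62) and closed with Lox, Tnc and Fbln5, and only Lox and Tnc were separated. These levels are a description of the 2 genotypes, with no test between genes.

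Fibulins bridge elastin, microfibrils and cell surfaces. Fibulin-5 (Fbln5), which binds both elastin and integrins and is needed for elastic fibre assembly, lies at XLOC_005335 (chromosome 12, 101746565 to 101819055, mm10; protein-coding). In wild type replicates 1 to 4 it stood at 66.4, 67.9, 69.4 and 57.2 CPM, and in YAP5SA at 107, 94.4, 90.0 and 85.2 CPM. Every YAP5SA library was above every wild type library. The log2 fold change was 0.53 ± 0.08 (SE, n = 4 per genotype), an increase of 1.44-fold (edgeR adjusted p = 0.00182). Fbln5 had the lowest mean FPKM of the 10 in both genotypes, although its libraries overlapped those of Tnc in each. With 362 to 896 fragments per library it was also sparsely covered, at 0.0984 fragments per base.

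Fibulin-1 (Fbln1), a secreted glycoprotein that binds fibronectin and elastin, lies at XLOC_007925 (chromosome 15, 85205992 to 85286294, mm10; protein-coding). It stood at 187, 182, 196 and 175 CPM in wild type and at 153, 154, 162 and 159 CPM in YAP5SA. All 4 YAP5SA libraries were below all 4 wild type libraries, although the difference was small beside that of Fbln5. The log2 fold change was −0.24 ± 0.05 (adjusted p = 0.00539). Fbln1 was the most densely covered of the 10 genes, at 0.517 fragments per base, in a range of density (0.3 and above) where counts within a genotype rose with library total by a median log-log slope of 0.469. That slope was 1.39 at 0.05 to 0.1 fragments per base, the range of Fbln5. Because YAP5SA libraries were deeper, the fold change was recomputed with offsets that depend on density: Fbln1 was then at −0.18 (adjusted p = 0.0217) and Fbln5 at 0.51 (adjusted p = 0.00251). Fn1, Postn, Eln, Fbn1, Fbn2 and Fbln2 lay in the same dense range as Fbln1. With these offsets in edgeR none of them passed (adjusted p from 0.134 for Fbln2 to 0.941 for Fbn1).

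Since these fibulins moved in opposite directions, the sequences before their start sites are shown. Each is the stretch of 250 bases that ends at the outermost RefSeq start site (GRCm38.p6, the assembly of mm10), 5′ to 3′ on the strand of the gene. Capitals mark matches on either strand to GGGCGG (a GC box).
Fbln5: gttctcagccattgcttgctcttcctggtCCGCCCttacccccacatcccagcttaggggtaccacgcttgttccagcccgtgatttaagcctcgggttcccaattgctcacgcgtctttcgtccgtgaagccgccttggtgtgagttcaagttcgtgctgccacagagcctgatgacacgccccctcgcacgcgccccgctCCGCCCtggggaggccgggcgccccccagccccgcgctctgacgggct
Fbln1: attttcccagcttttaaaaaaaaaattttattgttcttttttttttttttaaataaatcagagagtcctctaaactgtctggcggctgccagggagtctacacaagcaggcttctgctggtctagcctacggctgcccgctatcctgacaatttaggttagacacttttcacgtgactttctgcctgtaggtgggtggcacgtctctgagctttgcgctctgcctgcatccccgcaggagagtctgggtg
Their positions are chr12:101819120-101819369 on the minus strand and chr15:85205699-85205948 on the plus strand, and neither overlaps a GENCODE exon. The bases that follow the Fbln5 start site did not match a GENCODE transcript of Fbln5, while those that follow the Fbln1 site matched one of Fbln1. Which start sites were in use in these stomachs was not tested. GC content was 65.2% for Fbln5 and 46.4% for Fbln1, with 21 and 7 CpG dinucleotides. The Fbln5 stretch held GGGCGG at −221 and −48, counted from the start site and on the opposite strand. The Fbln1 stretch shown held none of the motifs searched, while the window of another, inner Fbln1 start site held GGGCGG at −11. The promoter table matched 6 of the 10 genes by symbol, with 10 windows. GGAATG, the core letters that TEAD partners of YAP bind, was in 0 of these 10 windows, against 12.6% of 32851 promoter windows of the same length. TGANTCA, the AP-1 motif, was likewise in 0 of 10 (6.75% of all windows), the CArG box of serum response factor in 0 of 10 (1.47%), GGGCGG in 6 of 10 (32.7%) and TATAAA in 3 of 10 (12.4%), in Postn at −26 and in both overlapping Tnc windows. Motifs were searched on both strands, and windows of 1 gene can overlap, so these counts are a description of letters in these windows.

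Fibulin-2 (Fbln2), an elastin-binding fibulin of embryonic mesenchyme and vessel walls (chromosome 6, 91212764 to 91272540, mm10; protein-coding), was the most variable of the 10 in wild type. Its wild type libraries stood at 151, 169, 222 and 94.0 CPM, a range of 2.36-fold, and its YAP5SA libraries at 206, 232, 221 and 215 CPM. The YAP5SA values lay close together, and wild type replicate 3 lay within their range while the other 3 lay below it. The log2 fold change of 0.46 ± 0.19 had an adjusted p of 0.131 (95% interval 0.03 to 0.88). The value moved with single wild type libraries: it was 0.67 (adjusted p = 0.0191) without replicate 3 and 0.27 (adjusted p = 0.148) without replicate 4.

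The other fibulin genes come from the lists of further elastic fibre and glycoprotein genes, but were set side by side as a family after their values were seen. Efemp1, which encodes fibulin-3, a fibulin of fascia and connective tissue, rose the most. It stood at 13.2, 10.6, 19.9 and 18.8 CPM in wild type and at 83.0, 84.3, 71.5 and 52.5 CPM in YAP5SA (log2 fold change 2.22 ± 0.21, adjusted p = 0.000104). Per length it went from 8.34 ± 2.38 to 39.4 ± 7.998 FPKM. In YAP5SA every library thus held more Efemp1 than the 14.88 to 18.8 FPKM of Fbln5, while in wild type the ranges of the 2 genes overlapped. Efemp2, which encodes fibulin-4, a partner of lysyl oxidase, was at 70.3 ± 3.92 and 71.0 ± 4.42 FPKM (log2 fold change 0.01, 95% interval −0.11 to 0.14, adjusted p = 0.905). Hmcn1 and Fbln7, at 7.77 ± 1.87 and 2.14 ± 0.357 FPKM in wild type, did not pass the test either. Of the 7 family members, 2 rose, 1 fell and 4 did not pass, against 9.06% higher and 9.85% lower of all loci. The family was assembled with these values known and holds both called genes of the 10, so its count is a description only.

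**Figure D2:**
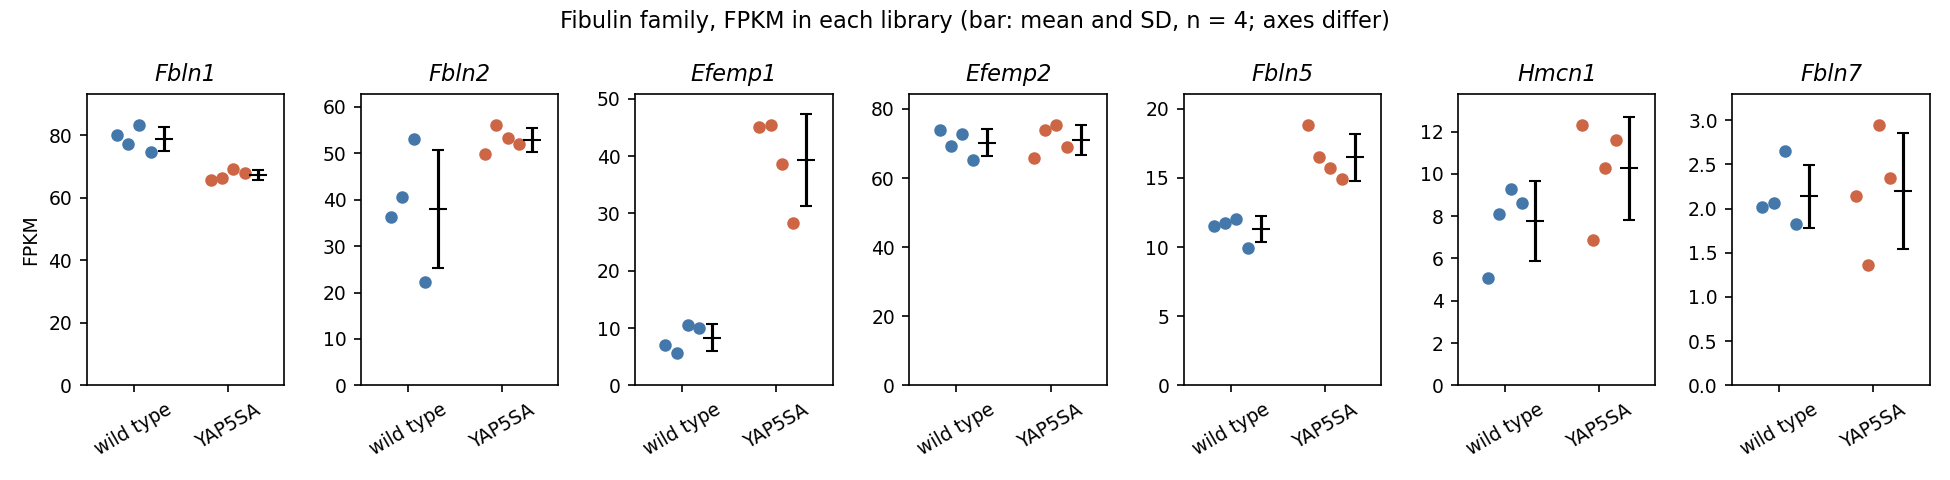
FPKM (y axes, starting at 0 and differing between panels) of the 7 fibulin genes by genotype, 1 point per library and a bar for the mean and SD (n = 4). Efemp1 went from 5.64 to 10.6 FPKM in wild type up to 28.3 to 45.5 in YAP5SA, while Efemp2 overlapped between the genotypes.

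The fibrillins form the microfibril scaffold. Fibrillin-1 (Fbn1; chromosome 2, 125300497 to 125506438, mm10; protein-coding) serves throughout life, while fibrillin-2 (Fbn2; chromosome 18, 58008529 to 58210509, mm10; protein-coding) is mostly made in the embryo. Fbn1 stood at 345, 457, 523 and 379 CPM in wild type and at 457, 383, 461 and 426 CPM in YAP5SA. Fbn2 stood at 350, 476, 545 and 427 CPM and at 522, 454, 552 and 558 CPM. Both overlapped between genotypes, Fbn1 with its highest value in wild type and Fbn2 with its highest in YAP5SA. The log2 fold changes were 0.02 ± 0.12 for Fbn1 (adjusted p = 0.943, 95% interval −0.25 to 0.28) and 0.21 ± 0.12 for Fbn2 (adjusted p = 0.264, interval −0.05 to 0.48).

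The ratio of Fbn2 to Fbn1 in FPKM was 0.946, 0.970, 0.970 and 1.05 in wild type and 1.07, 1.10, 1.11 and 1.22 in YAP5SA. Every YAP5SA library thus had a higher ratio than every wild type library, with means of 0.984 ± 0.0444 and 1.13 ± 0.0654 (SD, n = 4). The difference in log2 ratio was 0.19, with a two-sided exact permutation p of 0.0286, the smallest that 4 against 4 libraries allow. It missed the threshold when adjusted over the 2 ratios computed (exact permutation, adjusted p = 0.0571). With 4 against 4 libraries it could not pass unless the second ratio passed as well, so this miss decides nothing. The other ratio, Lox to Eln, the cross-linking enzyme against its substrate, was 0.811, 0.700, 0.757 and 0.781 in wild type and 0.968, 0.896, 0.940 and 0.721 in YAP5SA. Here YAP5SA replicate 4 lay inside the wild type range, and the difference of 0.20 did not pass (exact permutation p = 0.114, adjusted p = 0.114).

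**Figure D3:**
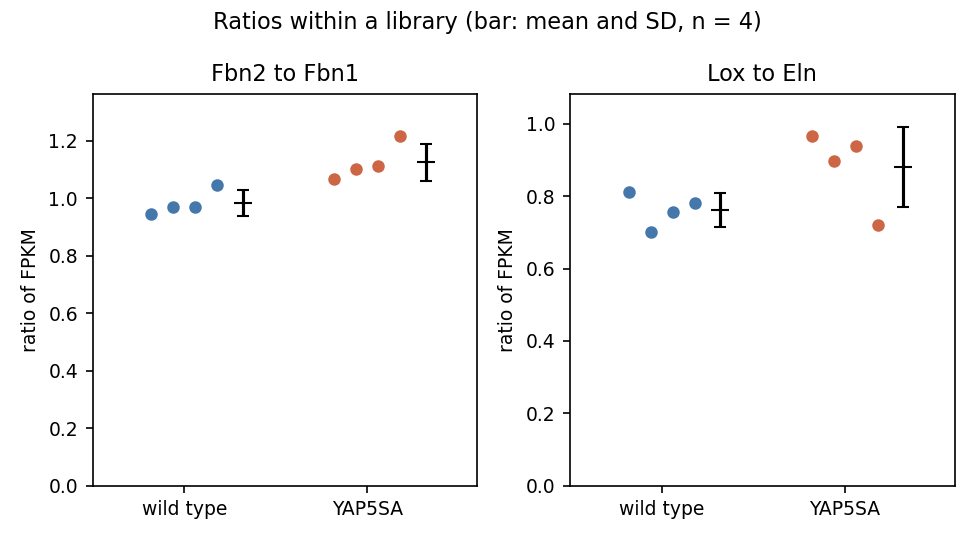
Ratio of FPKM within each library (y axes, starting at 0) of Fbn2 to Fbn1 on the left and of Lox to Eln on the right, by genotype, with a bar for the mean and SD (n = 4). The Fbn2 to Fbn1 ratio runs from 0.946 to 1.05 in wild type and from 1.07 to 1.22 in YAP5SA, without overlap.

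Elastin, the rubber-like core of the fibre (Eln; chromosome 5, 134702596 to 134747254, mm10; protein-coding), stood at 187, 172, 188 and 131 CPM in wild type and at 176, 164, 150 and 138 CPM in YAP5SA. Lysyl oxidase (Lox; chromosome 18, 52516014 to 52529995, mm10; protein-coding) stood at 170, 138, 160 and 115 CPM and at 198, 165, 161 and 111 CPM. Both overlapped, with replicate 4 the lowest library in each genotype. Fbln5 had its lowest libraries in the same places and, like Eln and Lox, its highest YAP5SA value in replicate 1. The log2 fold changes were −0.11 ± 0.11 for Eln (adjusted p = 0.575, 95% interval −0.36 to 0.14) and 0.12 ± 0.16 for Lox (adjusted p = 0.673, interval −0.24 to 0.49). With a library omitted in turn, Eln ran from −0.21 to −0.04 and Lox from 0.01 to 0.28, and neither passed.

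Among the glycoproteins that cells adhere to, fibronectin (Fn1; chromosome 1, 71585523 to 71653282, mm10; protein-coding) had the highest mean CPM of the 10 in wild type, at 467, 506, 566 and 488 CPM in wild type and 503, 461, 526 and 548 CPM in YAP5SA. The genotypes covered nearly the same range. Its log2 fold change of 0.01 ± 0.07 (adjusted p = 0.962) had a 95% interval of −0.16 to 0.17. Periostin (Postn; chromosome 3, 54360973 to 54391188, mm10; protein-coding) stood at 155, 151, 153 and 140 CPM in wild type and at 126, 178, 183 and 166 CPM in YAP5SA. In YAP5SA 3 libraries were above all of wild type, and replicate 1 was below all of it. The log2 fold change was 0.12 ± 0.10 (adjusted p = 0.474), and single YAP5SA libraries moved it both ways, to 0.24 (adjusted p = 0.0128) without replicate 1 and to 0.06 (adjusted p = 0.768) without replicate 3. Tenascin C (Tnc; chromosome 4, 63959785 to 64047018, mm10; protein-coding) stood at 66.9, 86.0, 111 and 107 CPM and at 97.5, 80.3, 114 and 153 CPM. Its genotypes overlapped, and with a log2 fold change of 0.26 ± 0.20 it did not pass (adjusted p = 0.423, interval −0.18 to 0.70).

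**Figure D4:**
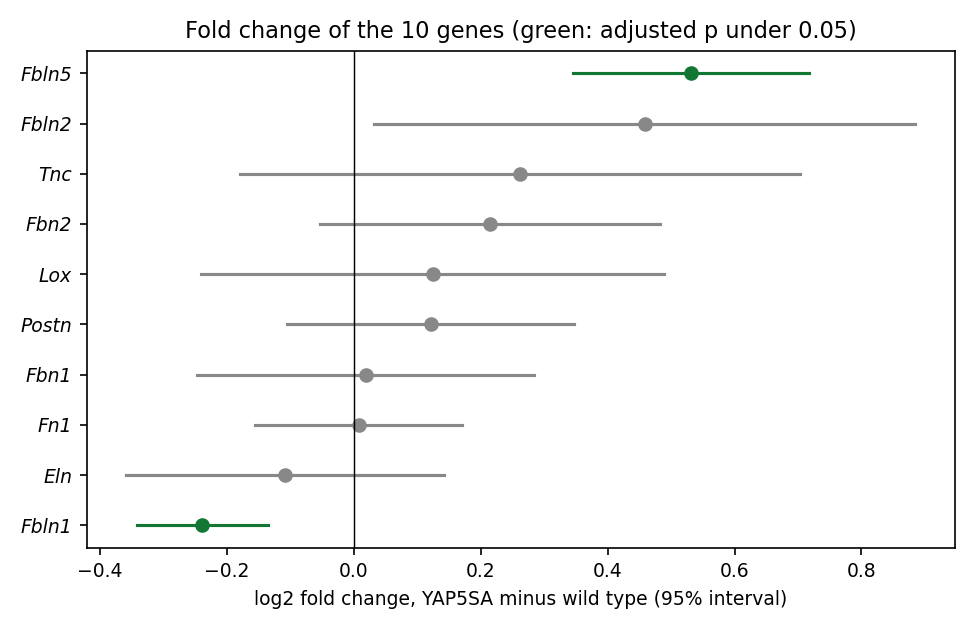
Log2 fold change (x axis, YAP5SA minus wild type) of the 10 genes with its 95% interval, ordered by size, with genes past an adjusted p of 0.05 in green. Fbln5 (0.53) and Fbln1 (−0.24) are green, and the interval of Fbln2 (0.03 to 0.88) also lies above 0 although its adjusted p was 0.131.

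The longest transcripts of the set shared a pattern across libraries. Fbn1, Fbn2, Fn1 and Tnc, with longest GENCODE M21 transcripts of 11971, 11041, 8315 and 7106 bases, each had their lowest wild type level in replicate 1 and their lowest YAP5SA level in replicate 2. The same libraries stood apart over all genes. As deviations from the mean of each locus, the 1374 loci of at least 6000 bases (lengths inferred from fragments and FPKM, at least 10 CPM), these 4 genes among them, differed from loci of 1000 to 3000 bases by a median log2 difference of −0.17 in wild type replicate 1 and −0.14 in YAP5SA replicate 2, and between −0.01 and 0.11 in the other 6 libraries. With offsets that depend on locus length, an alternative chosen after seeing the data, Fbn2 was at 0.18 (adjusted p = 0.14) and Tnc at 0.24 (adjusted p = 0.388), so neither passed. Fbn1 and Fn1 turned to −0.02 and −0.03 there, with adjusted p of 0.92 and 0.793.

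**Figure D5:**
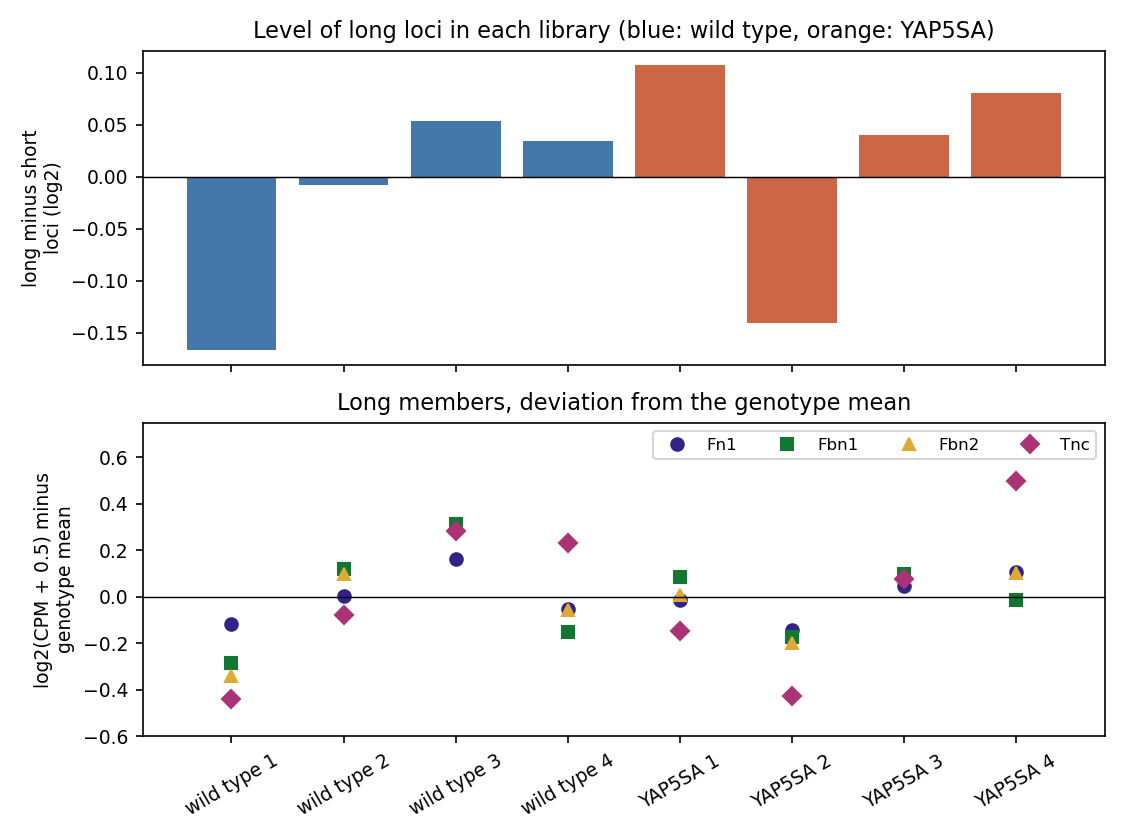
Above, the median log2 deviation of long loci minus that of short loci in each library (y axis), and below, the deviation of log2(CPM + 0.5) from the genotype mean for Fn1, Fbn1, Fbn2 and Tnc (y axis), by library (x axis). Wild type replicate 1 (−0.17) and YAP5SA replicate 2 (−0.14) are the low bars, and all 4 genes are at their lowest of a genotype there.

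Of 24 other elastic fibre genes tested, 5 rose and 3 fell (median 0.05), against 9.06% higher and 9.85% lower of all loci. Besides Efemp1, the rises were Loxl1, a lysyl oxidase relative that acts on elastin, from 98.1 ± 12.9 to 140 ± 11.9 CPM (0.51 ± 0.09, adjusted p = 0.00398), and Pcolce, an enhancer of procollagen processing, from 75.1 ± 7.90 to 104 ± 5.91 CPM (0.48 ± 0.08, adjusted p = 0.00185). Emilin2, a glycoprotein of elastic fibre surfaces, rose by 1.13 ± 0.28 (adjusted p = 0.0192, but 0.05055 by limma on log2(FPKM + 1) without a filter). Ltbp2, a latent TGF-beta binding protein found on microfibrils, rose by 2.17 ± 0.59 from 1.23 ± 0.983 CPM (adjusted p = 0.0266). Omitting wild type replicate 2 (adjusted p = 0.0682) or 4 (0.0693) ended that call, as did omitting YAP5SA replicate 1 (0.062) or 2 (0.0669). The falls were Ltbp4, another protein of that family needed for elastic fibres, by 0.36 ± 0.07 on the log2 scale, Emilin3 by 0.30 ± 0.07 and Bmp1, a protease that activates lysyl oxidase, by 0.20 ± 0.04 (adjusted p = 0.0063, 0.011 and 0.00906). Ltbp4 went from 365 ± 37.0 to 285 ± 12.7 CPM. The microfibril genes Mfap2 and Mfap4 and the lysyl oxidase relatives Loxl2 and Loxl4 did not pass.

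Of 28 other matrix glycoproteins tested, 4 rose and 3 fell (median 0.07), against the same 9.06% and 9.85% of all loci. Tnn, the tenascin N gene, fell by 1.69 ± 0.26 on the log2 scale, from 70.4, 82.6, 107 and 55.0 CPM to 37.3, 24.3, 20.2 and 15.3 CPM (adjusted p = 0.00162). Tnxb, another tenascin gene, fell by 1.28 ± 0.36 (adjusted p = 0.0311), while the tenascin R gene Tnr did not pass (−0.34, adjusted p = 0.459). Leaving out wild type replicate 1 (adjusted p = 0.0625) or 3 (0.0935) took Tnxb above an adjusted p of 0.05, as did leaving out YAP5SA replicate 2 (0.0801), 3 (0.088) or 4 (0.077). The calcium-binding glycoprotein gene Smoc1 fell by 0.81 ± 0.14 (adjusted p = 0.00277). The rises were Cthrc1, a secreted collagen triple helix protein (0.75 ± 0.09, adjusted p = 0.000342), the basement membrane gene Nid2 (0.56 ± 0.10, from 246 ± 40.5 to 363 ± 19.5 CPM), Aebp1 (0.36 ± 0.10) and Npnt, an integrin ligand (0.34 ± 0.11, adjusted p = 0.049). Aebp1 did not pass when YAP5SA replicate 1 (adjusted p = 0.0555), 2 (0.0525) or 3 (0.0698) was omitted. Nor did it pass with all libraries in the 3 limma fits of FPKM (adjusted p = 0.0508 to 0.0733). Npnt did not pass when wild type replicate 1 (adjusted p = 0.0949), 2 (0.0713) or 4 (0.102) was omitted, nor when YAP5SA replicate 1 (0.0727), 2 (0.103) or 3 (0.13) was. With all libraries it also missed the threshold with upper-quartile factors (0.0575), no filter (0.0554), density offsets (0.0522) and length offsets (0.0602). Without YAP5SA replicate 3 the list held 4 calls in place of 7.

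Of 14 receptor genes for these proteins tested, integrins and syndecans, 8 fell and 1 rose (median −0.20), against 9.85% lower and 9.06% higher of all loci. The number lower was 6 or 7 whenever a library was omitted, and the list was made of receptors that bind fibronectin, tenascins or fibulins. The fibronectin receptor gene Itga5 went from 200, 193, 204 and 202 CPM to 162, 157, 177 and 175 CPM (−0.25 ± 0.05, adjusted p = 0.00619). Itgb3 fell by 1.00 ± 0.16, from 39.5 ± 5.53 to 19.8 ± 4.36 CPM (adjusted p = 0.00172), while its partner Itgav rose by 0.28 ± 0.07 (adjusted p = 0.0176; 0.0504 without YAP5SA replicate 3). The syndecan genes Sdc3 and Sdc4 fell by 0.35 ± 0.06 and 0.52 ± 0.10 on the log2 scale. Itgb6 and Itgb8 fell by 1.35 ± 0.30 and 0.83 ± 0.20, beside the fall of all 7 tested epithelial markers given above, whose part was not tested. The smaller falls of Itgb5 and Sdc1 did not hold under all alternatives. Itgb5 did not pass once wild type replicate 1 (adjusted p = 0.0505) or 3 (0.0532), or YAP5SA replicate 2 (0.0534) or 4 (0.0519), was omitted. Sdc1 did not pass whichever of the 8 libraries was omitted (0.0691 to 0.147). With all libraries it also missed the threshold with RLE factors (0.0579), DESeq2 (0.0561), limma-voom (0.0545) and no filter (0.0869). Itgb1, the common beta chain, did not pass.

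Of 8 proteases and protease inhibitors tested, 1 rose and 1 fell (median 0.09), beside 18.9% called in either direction over all loci. Ctss, an elastin-degrading cathepsin of macrophages, rose from 16.3 ± 2.23 to 34.2 ± 9.45 CPM (1.07 ± 0.19, adjusted p = 0.00331), beside the rise of all 8 tested macrophage markers, whose part was not tested. Ctsk, another elastin-degrading cathepsin, fell from 14.7 ± 2.65 to 6.26 ± 2.39 CPM (−1.22 ± 0.25, adjusted p = 0.00723). The gelatinase gene Mmp2 and the membrane protease gene Mmp14 did not pass.

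Over the 8 libraries, the single-name loci of at least 10 CPM whose log2 CPM ran most like Fbln5 were Mrc1 (Pearson r = 0.993) and Gatm (0.992), out of 11445 compared. Mrc1, a receptor of tissue macrophages, went from 119 to 234 CPM on average, and Gatm, a creatine synthesis enzyme, from 34.3 to 64.3 CPM. For Fbln1 they were Dusp26, a phosphatase gene (0.988, 14.97 to 6.85 CPM), and Atp2a3, a calcium pump gene (0.987, 70.2 to 37.1 CPM). These r describe 8 points that share 2 genotypes and their library totals, so likeness within and between genotypes cannot be told apart in them.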

How the data were processed

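RNA of E13.5 mouse stomachs was measured in 4 wild type and 4 YAP5SA libraries. The labels' protocols name Trizol for the RNA and a TruSeq kit from Illumina for sequencing. The tools listed in the processing notes of the submitters are Cuffdiff, Cufflinks 2.2.1 and TopHat2 2.0.9, on build mm10. Treatment of duplicates, strand use and annotation are not given in the sources used here. The deposited table gives estimated counts of fragments per locus and library (10.6% to 11.0% of values not whole), which were rounded, and the authors' FPKM, scaled between libraries. That table numbers libraries from 0 and the labels from 1, and numbers were matched in that order. The 3582 loci without a name (1.85% to 1.97% of fragments) were left out.

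Genotypes were compared with edgeR 4.0.16 in R 4.3.3 (robust quasi-likelihood test, TMM, default filterByExpr with 10 fragments in enough libraries and 15 in total), with Benjamini-Hochberg adjustment over 14574 loci. The step was tested on simulated data. Library pairs within a genotype differed by more than counting error, which does not tell separate embryos from separate preparations of 1 pool. Each library was counted as 1 replicate. Deviations from the genotype mean correlated weakly between libraries with the same number (0.207, 0.258, 0.170 and 0.357). The same number was the closest partner for wild type replicates 2, 3 and 4, while wild type replicate 1 was closest to YAP5SA replicate 2. A fit with the replicate block was therefore run. Alternatives were RLE and upper-quartile factors, DESeq2 1.42.0, limma 3.58.1 (voom, and log2(FPKM + 1) or log2(FPKM + 0.1)), no filter, density and length offsets, and leaving out each library. The 10 genes, the gene lists and the ratios were chosen with earlier results of these data known. Genes named were the 10, up to 6 called genes of each list with the smallest p, and for each called gene of the 10 the 2 loci most like it. Emilin2, Ltbp2, Npnt, Itgav, Itgb5, Sdc1 and the genes named as not passing were named after their values were seen. Start coordinates of the deposited table, which count from 0, were raised by 1. Promoter sequences are from RefSeq on GRCm38.p6.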

Additional observations from a re-analysis of the deposited data

How the results depend on the processing

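Fbln5 and Fbln1 kept their direction and their call in all 19 alternatives, with log2 fold changes of 0.47 to 0.59 and of −0.26 to −0.18. The counts of called loci, of elastic fibre genes, of receptors and of proteases stayed within 1.5 times the reported ones in all 19. The number of the 10 genes called higher was 1 to 2 when libraries were left out in turn, because Fbln2 was called without wild type replicate 3 and Postn without YAP5SA replicate 1. For other matrix glycoproteins the number called was 4 to 7 when libraries were left out, 8 with the replicate block, and 4 by limma on log2(FPKM + 1) without a filter. In that limma fit Tnxb (adjusted p = 0.0651), Npnt (0.07) and Aebp1 (0.0733) did not pass, and the cause was not tested. The elastic fibre genes Emilin2 (0.05055) and Ltbp2 (0.0538) did not pass there either, while their list still held 8 calls. Fold changes near 0 turned sign without a call. Fn1 was at −0.0001 with upper-quartile factors and −0.0259 with length offsets, and at −0.0179 to 0.0726 when libraries were left out. Fbn1 was at −0.0176 with length offsets and at −0.0577 to 0.1401 when libraries were left out. Omitting libraries in turn also moved Tnc (0.08 to 0.41) and Fbn2 (0.12 to 0.33), without a call. The replicate block changed no call of the 10 genes: Fbln5 was at 0.53 (adjusted p = 0.000846) and Fbln1 at −0.24 (adjusted p = 0.00815), and the Fbn2 to Fbn1 difference was 0.1936 in the paired test by sign flips, which allows no p under 0.125. With the block Sdc1 did not pass (adjusted p = 0.0862), nor did it in the 3 limma fits of FPKM (0.0638 to 0.0704). Aebp1 did not pass in those 3 limma fits either (0.0508 to 0.0733). The length offsets were chosen after seeing the data. Depth limits what can be said of sparsely counted loci such as Ltbp2, at 1.23 CPM in wild type.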
